A study of Mus musculus with 15 samples.

Results

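The 3 NR4A orphan nuclear receptor genes, Nr4a1, Nr4a2 and Nr4a3, are described here across 5 treatments of a mouse dendritic cell line. Their members on the array were the probe sets that the platform annotation maps to one of these symbols and to no other gene. This gave 10 probe sets of 45037 that were not array controls: 1 for Nr4a1, 6 for Nr4a2 and 3 for Nr4a3. The choice used no measured value, but the family was picked with earlier results of these arrays known.

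Total RNA was measured on 15 expression arrays, 3 in each of 5 groups, from a cell line that came from the epidermis of newborn mice of the A/J strain. The groups were cells given DNFB, the chemical allergen of the design; cells given H2O2, hydrogen peroxide; cells given DPI, the inhibitor of reactive oxygen species; cells given DPI + DNFB; and non-treated cells. The sample labels call the last group non-treated, while the design text speaks of vehicle alone, and doses and exposure times are not given in the sources used here. All groups share the 1 cell line, and whether the 3 arrays of each group stand for separate cultures is not stated. The p-values therefore cover only array-to-array spread, and that spread may be technical.

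The values are MAS5 signals, a linear brightness per probe set, rescaled to a common trimmed mean of 500 on each array. Signals of different probe sets cannot be ranked against each other as amounts of RNA. All 12 of 12 dendritic cell markers were above the filter on dim probe sets, with a summed signal between 101000 and 138000 over the 15 arrays. Cd74, H2-Aa, H2-Ab1 and H2-Eb1 make up most of this sum, and it does not show the moves of smaller markers. Spi1 averaged 1960 with DPI, against 4900 in non-treated cells. Ciita averaged 373 with DNFB, 544 with H2O2, 210 with DPI and 316 with DPI + DNFB, against 768 in non-treated cells. With H2O2, Irf8 averaged 4600, against 2020 in non-treated cells, while Itgax averaged 2230, against 3090. Cd86 averaged 4250 with DNFB, against 2870 in non-treated cells. Ptprc group means stayed between 9950 and 12400. Macrophage markers (4 of 4 above the filter) had summed signals of 8760 to 9490 with DNFB, 6970 to 9260 with H2O2, 10500 to 11000 with DPI and 12600 to 14300 with DPI + DNFB, against 16500 to 20300 in non-treated cells. That sum is mostly Csf1r, which averaged 6750, 6000, 8680 and 11300 in these 4 treated groups, against 16200 in non-treated cells. The other markers did not follow it: Cd68 averaged 2030, 1470, 1760 and 1570, against 1250, and Adgre1 231, 438, 288 and 333, against 227. Mertk averaged 38.2, 80.1, 74.9 and 130, against 55. Their part in the results was not tested. Markers of keratinocytes, fibroblasts, T cells, B cells, mast cells, endothelial cells and melanocytes each summed to at most 1010 on any array. The beta-actin ratio of 3' to 5' signal, a measure of RNA integrity, was 2.07, 1.5 and 2.29 on the DPI + DNFB arrays and 1.19 to 1.53 on the other 12. The same ratio for Gapdh was 1.09, 0.952 and 1.27 on the DPI + DNFB arrays and 0.814 to 0.922 on the other 12, without overlap. In bulk RNA, fewer cells that express a gene and less of its RNA per cell cannot be told apart.

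NR4A proteins are transcription factors of the nuclear receptor family whose ligand pocket is filled by side chains, so their activity is thought to follow their amount and modification rather than a hormone. They are immediate early genes: stress, growth factors, calcium and cyclic AMP raise their transcription quickly, in part through CREB bound at cyclic AMP response elements (CREs) near the start sites. In myeloid cells they are known as modulators of inflammatory gene expression, and Nr4a3 has been tied to dendritic cell migration.

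The 250 bases before each start site are shown because the 3 genes share a feature there. Capitals mark the CRE core, TGACG on the printed strand or CGTCA where the core lies on the other strand. The sequences are RefSeq's, from the mouse build GRCm38.p6, printed 5' to 3' along the gene. The Nr4a1 window is chr15:101266596-101266845 on the plus strand, the Nr4a2 window chr2:57124004-57124253 on the minus strand and the Nr4a3 window chr4:48045055-48045304 on the plus strand.
Nr4a1: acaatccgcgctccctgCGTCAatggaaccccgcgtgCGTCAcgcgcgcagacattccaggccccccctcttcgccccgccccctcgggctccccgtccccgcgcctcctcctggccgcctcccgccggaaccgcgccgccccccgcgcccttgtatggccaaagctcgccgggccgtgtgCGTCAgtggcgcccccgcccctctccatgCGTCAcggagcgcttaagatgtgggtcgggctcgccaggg
Nr4a2: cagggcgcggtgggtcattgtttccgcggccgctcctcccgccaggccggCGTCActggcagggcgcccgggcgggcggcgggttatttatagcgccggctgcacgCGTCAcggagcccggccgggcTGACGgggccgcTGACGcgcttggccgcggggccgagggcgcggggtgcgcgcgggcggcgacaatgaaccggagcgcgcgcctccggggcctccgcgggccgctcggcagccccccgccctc
Nr4a3: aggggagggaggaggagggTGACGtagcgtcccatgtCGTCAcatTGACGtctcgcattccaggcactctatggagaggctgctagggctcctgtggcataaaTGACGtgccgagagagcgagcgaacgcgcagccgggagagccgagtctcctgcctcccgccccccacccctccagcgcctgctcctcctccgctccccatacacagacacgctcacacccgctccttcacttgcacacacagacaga
Each window held 4 CRE cores. Among 32851 promoter windows of the same length, 17.8% held at least 1 and 0.137% held at least 4. The cut of 4 was taken from the members' own count. G and C made up 74.4% of the Nr4a1 window, 80% of the Nr4a2 window and 63.6% of the Nr4a3 window, and TGACG itself holds a CG. The windows compared were not matched for G and C content. The cores began between -233 and -40 relative to the start in Nr4a1, between -200 and -111 in Nr4a2 and between -231 and -147 in Nr4a3. The full CRE, TGACGTCA, was in none of the 3 windows and in 1.55% of all windows. The same was true of the NR4A proteins' own NBRE element, AAAGGTCA (1.34% of windows), of the AP-1 element TGANTCA (6.75%) and of the CArG box of serum response factor (1.47%), all searched on both strands. The core of the antioxidant response element, TGACNNNGC, matched once each in Nr4a2 at -123 and in Nr4a3 at -231, both times overlapping a CRE core, and in 10.2% of windows. The GC box GGGCGG matched 3 times in Nr4a1, 4 times in Nr4a2 and 1 time in Nr4a3, and in 32.7% of windows. A MEF2 site lay at -167 in Nr4a2 and was in 2.92% of windows. These matches describe letters only. The Nr4a1 window lies inside the annotated gene span, which begins farther upstream with other transcripts, and the Nr4a3 window lies inside its gene's span from 48045078 on.

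Nr4a1 (probe set 1416505_at; gene at chr15:101253902-101274795), also known as Nur77, is a rapid response gene of lymphocytes and macrophages. Its rescaled signal was 1870, 2783 and 2460 on the 3 DNFB arrays. With H2O2 it was 1870, 2618 and 1725, with DPI 2913, 2815 and 2697, and with DPI + DNFB 5320, 5270 and 4896. The non-treated arrays had 662, 815 and 477. Every treated array lay above every non-treated array, and the 3 DPI + DNFB arrays lay above all others.

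Nr4a1 averaged 2371 ± 463 with DNFB, against 652 ± 169 in non-treated cells (SD, n = 3 each), a 3.61-fold difference (1.85 ± 0.178 SE, log2; adjusted p = 4.87e-07). Folds and log2 differences here are on the scale of log2(signal + 15), which understates changes of dim probe sets, and adjusted p-values are limma's, over 27022 probe sets. It rose 3.15-fold with H2O2 (adjusted p = 1.65e-06), 4.33-fold with DPI (adjusted p = 8.35e-08) and 7.94-fold with DPI + DNFB (adjusted p = 9.79e-10). These 4 comparisons share the non-treated arrays and are not independent of each other. On the values as deposited, where arrays of 1 group carry different scaling targets, the rises with DNFB (1.52; adjusted p = 0.149) and H2O2 (1.65; adjusted p = 0.101) did not pass.

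The order of Nr4a1 levels was DPI + DNFB, DPI, DNFB, H2O2 and non-treated. The signal with DPI + DNFB was 1.83-fold that with DPI alone (adjusted p = 0.00166) and 2.20-fold that with DNFB alone (adjusted p = 4.91e-05). DPI and DNFB overlapped, with a difference of 0.26 on the log2 scale (95% interval -0.11 to 0.63; adjusted p = 0.301), a comparison of neighbours chosen after the values were seen. DNFB and H2O2 also overlapped (0.20, interval -0.17 to 0.57; adjusted p = 0.576).

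Nr4a3 (probe set 1438796_at; gene at chr4:48045078-48086447), also known as NOR-1, had the lowest non-treated signal relative to its treated signals of the 3. Its signal was 677, 1286 and 956 on the DNFB arrays. It was 1194, 1333 and 999 with H2O2, 1813, 1733 and 1690 with DPI, and 2176, 1833 and 1430 with DPI + DNFB. The non-treated arrays had 98.9, 70.6 and 151. The lowest treated array, DNFB replicate 1, was above the highest non-treated array, and the DPI and DPI + DNFB ranges overlapped.

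Nr4a3 averaged 973 ± 305 with DNFB, against 107 ± 40.9 in non-treated cells (SD, n = 3 each), an 8.14-fold difference (3.02 ± 0.23 SE, log2; adjusted p = 2e-08). It rose 10.1-fold with H2O2 (adjusted p = 7.56e-09), 15-fold with DPI (adjusted p = 1.13e-09) and 15.3-fold with DPI + DNFB (adjusted p = 8.38e-10). Among the 27022 probe sets, ordered from the largest rise, it stood at place 29 with DNFB, 15 with H2O2, 7 with DPI and 16 with DPI + DNFB. Nr4a1 stood at places 163, 230, 88 and 49 in the same comparisons.

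The order of Nr4a3 levels was DPI + DNFB, DPI, H2O2, DNFB and non-treated. Adding DNFB to DPI gave a difference of 0.03 on the log2 scale, which did not pass the test (interval -0.45 to 0.52; adjusted p = 0.936). Adding DPI to DNFB gave 1.89-fold more signal (adjusted p = 0.00369), with no overlap. Among the 9 arrays deposited with the higher scaling target it was 0.33 on the log2 scale, but these hold 1 DNFB array, replicate 2, which has the highest Nr4a3 signal of the 3. DPI against H2O2 differed by 0.57 (adjusted p = 0.0724), a neighbour comparison chosen after the values were seen, and DNFB against H2O2 by -0.31 (interval -0.79 to 0.17; adjusted p = 0.481).

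Nr4a2 (probe set 1455034_at; gene at chr2:57106830-57124003), also known as Nurr1 and required for midbrain dopamine neurons, had another order of levels. Its signal was 4487, 5633 and 4861 with DNFB, 3290, 3419 and 3630 with H2O2, and 8450, 7857 and 7340 with DPI. With DPI + DNFB it was 11120, 11552 and 11186, against 4141, 6029 and 5231 in non-treated cells. The DNFB and non-treated arrays overlapped, the H2O2 arrays lay below both, and the DPI and DPI + DNFB arrays lay above both without touching each other.

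Nr4a2 averaged 4993 ± 584 with DNFB, against 5134 ± 948 in non-treated cells (SD, n = 3 each), and the difference of -0.03 on the log2 scale did not pass the test (interval -0.29 to 0.23; adjusted p = 0.923). It fell 1.47-fold with H2O2 (-0.56; adjusted p = 0.00256), rose 1.55-fold with DPI (0.63; adjusted p = 0.000783) and rose 2.22-fold with DPI + DNFB (1.15; adjusted p = 1.64e-06). Its order was DPI + DNFB, DPI, non-treated, DNFB and H2O2. DPI + DNFB was 2.27-fold above DNFB alone (adjusted p = 4.75e-07) and 1.43-fold above DPI alone (adjusted p = 0.00487). DNFB was 1.44-fold above H2O2 (adjusted p = 0.00916). When all kept Nr4a2 probe sets, the dim ones included, were averaged, 3 of these calls were lost: H2O2 (-0.04; adjusted p = 0.879) and DPI (0.36; adjusted p = 0.078) against non-treated cells, and DNFB against H2O2 (0.11; adjusted p = 0.714). The last was also lost without DNFB replicate 2 (0.44).

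**Figure D1:**
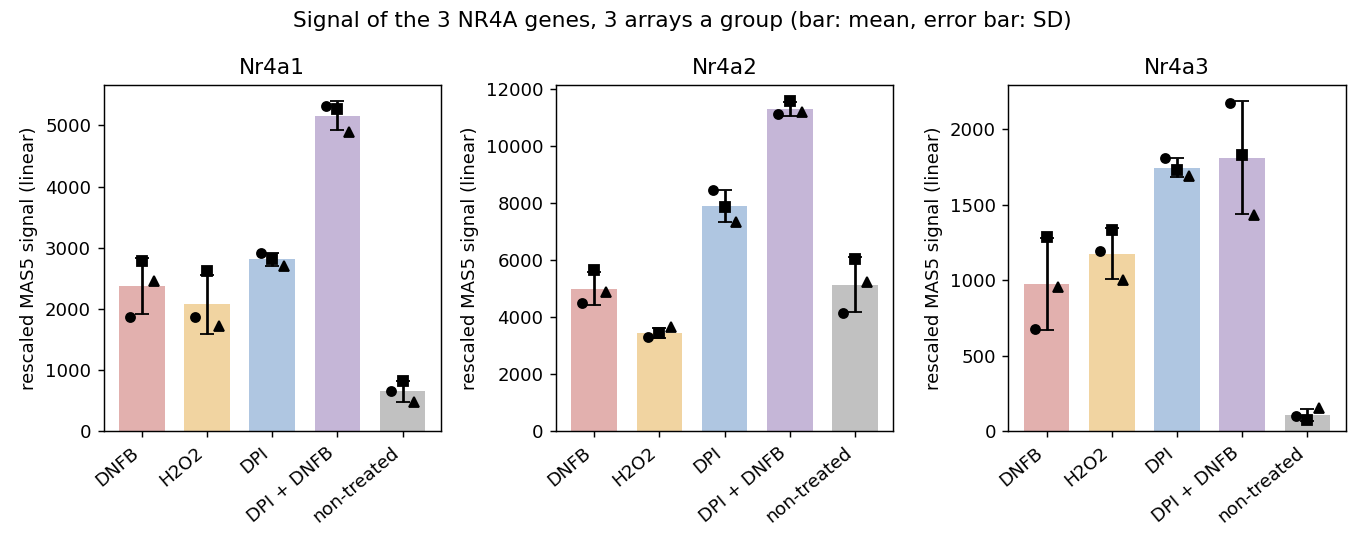
Rescaled linear MAS5 signal of Nr4a1 (1416505_at), Nr4a2 (1455034_at) and Nr4a3 (1438796_at) in the 5 groups, 1 point per array, with a bar at the mean and an error bar of 1 SD over 3 arrays. Nr4a1 and Nr4a3 are higher on every treated array than on any non-treated array. For Nr4a2, the DPI and DPI + DNFB arrays lie above all non-treated arrays and the H2O2 arrays lie below them.

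Of the 10 probe sets, 8 passed the filter on dim values, a mean log2 signal of at least 6.22, and entered the tests: 1 of Nr4a1, 6 of Nr4a2 and 1 of Nr4a3. With DNFB, 2 of these 8 were higher and 0 were lower, where 8.22% of all probe sets tested were higher and 9.56% were lower. With H2O2, 2 were higher and 2 lower, against 8.69% and 12.2% of all. With DPI, 6 were higher and 0 lower, against 10.1% and 14.7% of all, and with DPI + DNFB, 6 were higher and 0 lower, against 13.3% and 16.0%. The 6 probe sets of Nr4a2 share 1 gene and are not separate observations of the family.

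The remaining Nr4a2 probe sets divided into bright and dim. The 3 bright ones moved as 1455034_at did with DPI and with both agents. Probe set 1447863_s_at had 3679, 3892 and 3744 with DNFB, 2560, 2812 and 3136 with H2O2, 6867, 6167 and 5611 with DPI, and 11004, 9323 and 10502 with DPI + DNFB, against 3548, 4724 and 3753 in non-treated cells. It rose with DPI (0.64 on the log2 scale; adjusted p = 0.000587) and with DPI + DNFB (1.36; adjusted p = 1.61e-07), and fell with H2O2 (-0.49; adjusted p = 0.00577). Probe sets 1450749_a_at and 1450750_a_at rose with DPI by 0.61 and 0.67 and with DPI + DNFB by 1.13 and 1.11, with adjusted p-values from 6.4e-06 to 0.00259. Their differences with H2O2, -0.31 and -0.38, did not pass the test (adjusted p = 0.127 and 0.0826).

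The dim Nr4a2 probe sets did not follow that pattern. Probe set 1433422_at had a mean log2 signal of 6.23, just above the filter. It averaged 148 with DPI + DNFB, against 33.3 with DPI and 47.9 in non-treated cells. On the log2 scale it averaged 7.33 with DPI + DNFB, 6.16 with DNFB, 6.35 with H2O2, 5.57 with DPI and 5.75 in non-treated cells. The DPI + DNFB arrays thus carried it past the filter of 6.22, so a call of that group as higher is not independent of the filter. Among the 8 comparisons of the design the probe set passed in 1, DPI + DNFB against DPI (1.76; adjusted p = 0.0364). That call was lost in 17 of the 32 alternatives that gave it a value, among them no filter (adjusted p = 0.0538) and quantile normalization (adjusted p = 0.0749). The probe set reached 1.58 against non-treated cells (adjusted p = 0.0502). Probe set 1433423_at, with group means between 95.8 and 228, passed in none of the 8 comparisons of the design. Of the 3 neighbour comparisons added after the values were seen, it passed in 1, where it was lower with DPI + DNFB than with H2O2 (-1.14; adjusted p = 0.0422), opposite in sign to the 4 bright Nr4a2 probe sets.

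The other Nr4a3 probe sets were below the filter, with mean log2 signals of 5.09 for 1421079_at and 5.68 for 1421080_at. Probe set 1421079_at had 53.9, 37.2 and 51.5 with H2O2 and 71.8, 30.6 and 27.1 with DPI, against 1.74, 10.1 and 2.63 in non-treated cells. Its DNFB arrays had 12.97, 5.41 and 8.41 and overlapped the non-treated ones. With the filter left off, it rose with H2O2 (1.67; adjusted p = 0.0157) and DPI (1.5; adjusted p = 0.0279). With DPI + DNFB its arrays had 38.8, 4.03 and 9, and the difference of 0.58 did not pass (adjusted p = 0.431), unlike the rise of 1438796_at. Probe set 1421080_at passed in none of the 8 comparisons without the filter, with adjusted p-values from 0.525 to 0.951, and had 0.07 with DPI + DNFB.

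**Figure D2:**
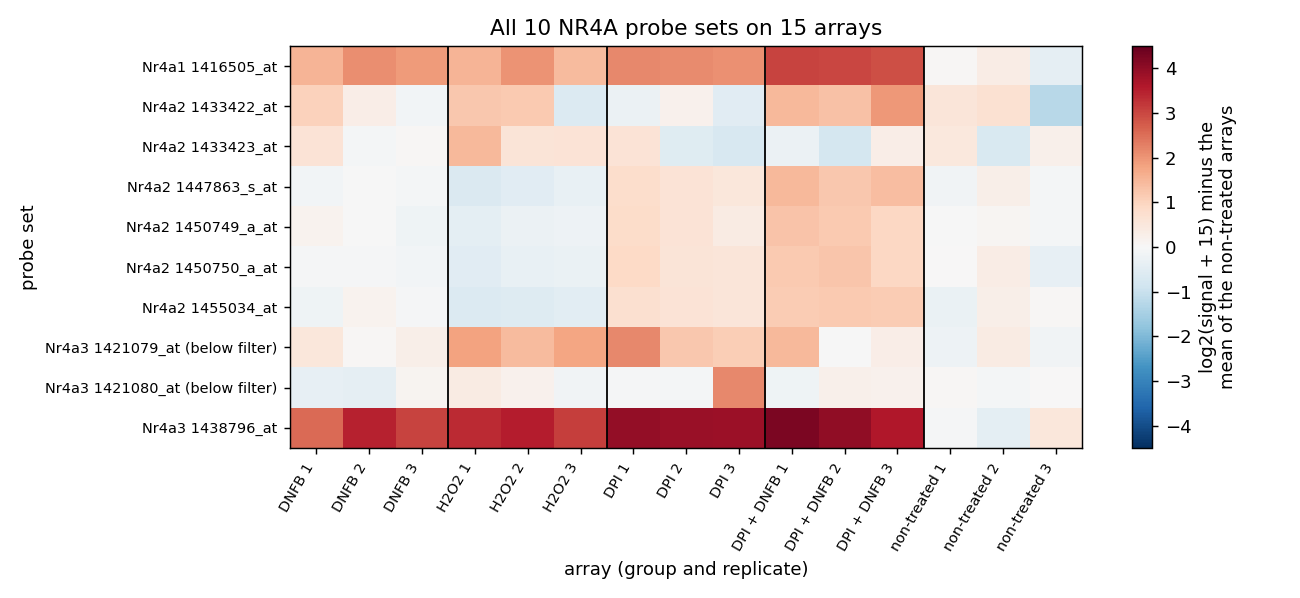
Heat map of all 10 NR4A probe sets (rows) on the 15 arrays (columns, by group and replicate). Colour is log2(signal + 15) minus the mean of the 3 non-treated arrays, and rows below the filter are marked. The Nr4a1 row and the bright Nr4a3 row are raised on all 12 treated arrays. The 4 bright Nr4a2 rows are raised on the DPI and DPI + DNFB arrays and average below the non-treated level with H2O2.

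The 2 by 2 part of the design asks whether DNFB acts alike with and without the inhibitor. The interaction is the DNFB difference in cells that also had DPI, minus the DNFB difference in cells without it, on the log2 scale. It was -0.98 ± 0.252 for Nr4a1 (SE; adjusted p = 0.0077), 0.55 ± 0.174 for Nr4a2 (adjusted p = 0.0268) and -2.99 ± 0.325 for Nr4a3 (adjusted p = 2.43e-06). Of the 8 tested NR4A probe sets, 2 had a positive and 2 a negative interaction past the test, against 12.9% and 10.9% of all probe sets. Among the bright Nr4a2 probe sets, 1450749_a_at (0.53, adjusted p = 0.0513) and 1450750_a_at (0.52, adjusted p = 0.0879) did not pass. With the beta-actin ratio as a covariate, the Nr4a1 and Nr4a2 interactions did not pass (-0.98, adjusted p = 0.0528, and 0.485, adjusted p = 0.162). That ratio was 1.5 to 2.29 on the DPI + DNFB arrays and 1.19 to 1.53 on the other 12. The fit can therefore hardly separate ratio and group, and a call lost under this covariate does not tell them apart. The Nr4a2 interaction also failed without any 1 of 5 arrays: non-treated replicate 2 (0.42) or 3 (0.53), DNFB replicate 1 (0.475) or 3 (0.53), or DPI replicate 3 (0.50).

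DNFB added 2354 signal units to Nr4a1 in DPI-treated cells and 1719 units without DPI, so the linear and log2 scales differ in sign for that gene. For Nr4a2, DNFB added 3403 units with DPI and -140 units without it. For Nr4a3, it added 67.6 units with DPI and 866 without. On the linear scale, the combined signal was 5162 for Nr4a1, where the non-treated signal plus the separate DPI and DNFB steps gave 4528. It was 11286 against 7742 for Nr4a2, and 1813 against 2611 for Nr4a3.

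In DPI + DNFB against DNFB alone, 6 of the 8 probe sets were higher and 0 lower, where 18.8% of all were higher and 18.6% lower. Against DPI alone 6 were higher and 0 lower, where 11.9% of all were higher and 10.9% lower. Of those 6, 1433422_at lost its call in 17 of 32 alternatives and 1450750_a_at in 14 of 33. Probe set 1433422_at was also carried past the filter by its DPI + DNFB arrays. With the beta-actin ratio as a covariate, DPI + DNFB against DPI did not pass for Nr4a1 (0.875; adjusted p = 0.137) or Nr4a2 (0.441; adjusted p = 0.286), nor did DPI + DNFB against DNFB for Nr4a3 (0.89; adjusted p = 0.103). Here too the ratio largely goes with the DPI + DNFB group, and the fit can hardly separate them. DNFB against H2O2 gave 2 higher and 0 lower, where 5.76% of all were higher and 4.32% lower, both of them Nr4a2 probe sets and so of 1 gene. Of these, 1447863_s_at lost its call in 12 of 33 alternatives and 1455034_at in 5 of 35. The other bright Nr4a2 probe sets, 1450749_a_at (adjusted p = 0.207) and 1450750_a_at (adjusted p = 0.228), did not pass.

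**Figure D3:**
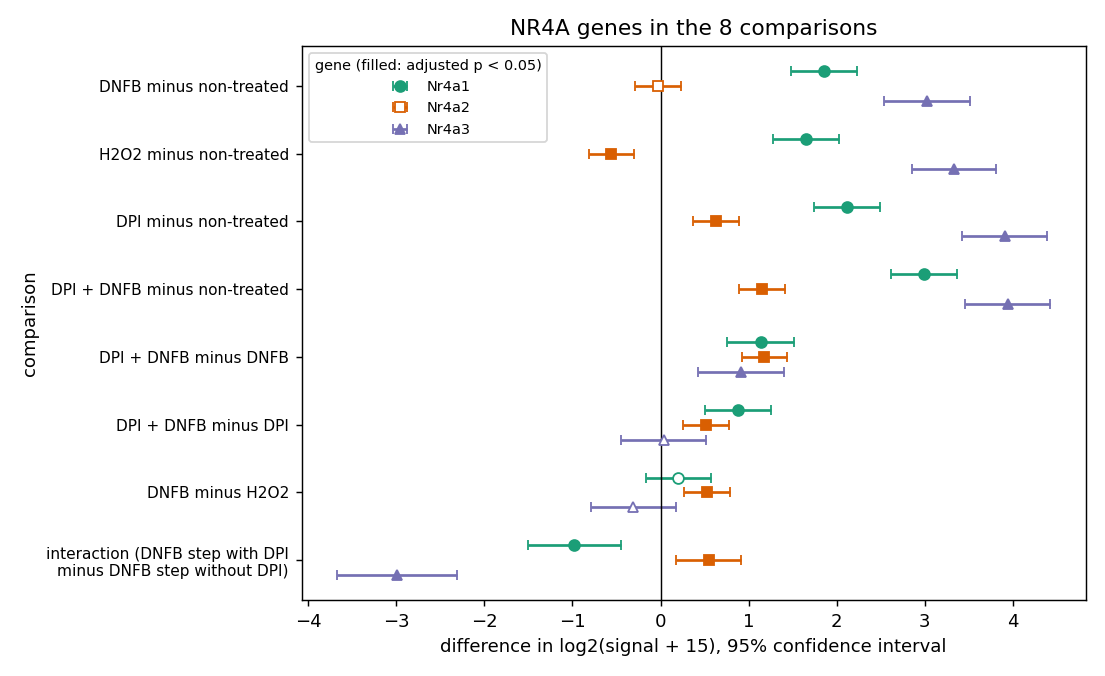
Difference in log2(signal + 15) between groups for the 3 NR4A genes in the 8 comparisons, with 95% confidence intervals from the limma fit. Filled markers passed an adjusted p of 0.05. Nr4a3 lies at 3.02 to 3.94 in the 4 comparisons with non-treated cells and at -2.99 in the interaction, the widest spread of the 3 genes.

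Because a common shift of an array cancels within it, the log2 signal of one member was set against another's on the same array. Nr4a1 minus Nr4a2 averaged -1.08 with DNFB, -0.75 with H2O2, -1.48 with DPI and -1.13 with DPI + DNFB, against -2.97 in non-treated cells. Nr4a3 minus Nr4a2 averaged -2.38, -1.55, -2.16 and -2.65 in the same 4 treated groups, against -5.44 in non-treated cells. These differences depend on the probes' brightness, and only their change between groups is comparable. In each of these 8 treated-to-non-treated comparisons the 3 treated arrays lay apart from the 3 non-treated ones, and each exact permutation p was 0.1, two-sided, the smallest that 3 against 3 arrays can give (0.129 adjusted over 18 tests).

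Nr4a3 minus Nr4a1 averaged -1.30 with DNFB, -0.79 with H2O2, -0.68 with DPI and -1.52 with DPI + DNFB, against -2.47 in non-treated cells. The DPI + DNFB arrays overlapped the non-treated ones on this difference (exact permutation p = 0.2).

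**Figure D4:**
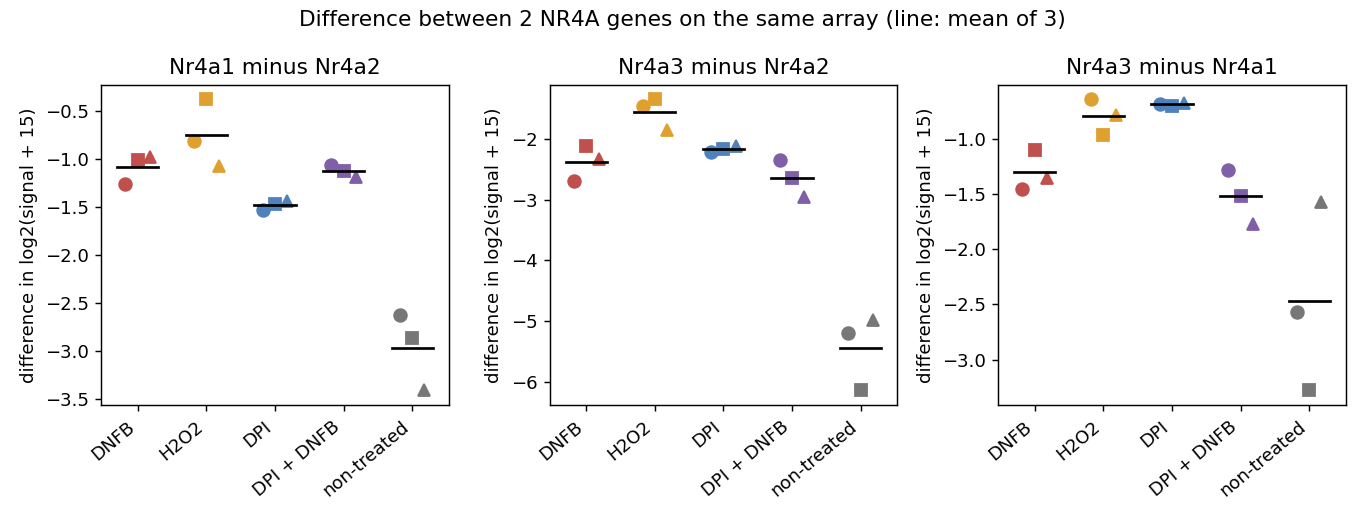
Difference in log2(signal + 15) between 2 NR4A genes on the same array, by group, 1 point per array, with a line at the mean of 3. Nr4a1 minus Nr4a2 averages -2.97 and Nr4a3 minus Nr4a2 averages -5.44 in non-treated cells. All treated arrays lie above the non-treated arrays in these 2 differences.

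The NR4A genes were set beside the other nuclear receptors, a family of ligand-regulated transcription factors. Of 45 others listed, 41 were on the array and 29 passed the filter. Ranked with them from the largest rise, Nr4a3 was 1 and Nr4a1 was 2 of 32 in each of the 4 comparisons with non-treated cells, and Nr4a2 was 20 with DNFB, 28 with H2O2, 9 with DPI and 5 with DPI + DNFB. In the interaction Nr4a3 was 32 of 32. Among the other 29, 4 rose and 2 fell with DNFB, where 9.83% and 12.8% of all genes did. With H2O2 3 rose and 1 fell, with DPI 5 rose and 5 fell, and with DPI + DNFB 4 rose and 3 fell, where the shares of all genes were 10.1% and 16.2%, 12.4% and 17.5%, and 14.5% and 18.1%. Their median log2 difference was 0.21 with DNFB, where the median of all genes was -0.06. It was -0.03 with H2O2, -0.09 with DPI and 0.10 with DPI + DNFB, where all genes had -0.06, -0.01 and 0.02. Nr1d2, a repressor of the circadian clock, rose by 0.96 with DNFB (adjusted p = 0.000917), and Nr0b2, a corepressor of other nuclear receptors, fell by 1.58 (adjusted p = 0.0018). With DPI, Esr1 rose by 1.28 (adjusted p = 0.000312) and Vdr, the vitamin D receptor, by 1.14 (adjusted p = 0.000823). Nr0b2 fell by 1.35 with DPI (adjusted p = 0.00491). With DPI + DNFB, Esrrg rose by 1.59 (adjusted p = 0.00201), and Nr3c1, the glucocorticoid receptor, fell by 0.79 (adjusted p = 0.00149).

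Regulators of NR4A transcription were tested as 15 of 17 listed genes. The list holds CREB and ATF factors, CRTC coactivators, MEF2 factors, serum response factor, Elk1, Nfatc1, Nfatc2 and kinases. With DNFB 2 rose and 4 fell, with H2O2 2 rose and 3 fell, with DPI 6 rose and 4 fell, and with DPI + DNFB 3 rose and 3 fell. The shares of all genes that rose and fell were those given for the nuclear receptors: 9.83% and 12.8%, 10.1% and 16.2%, 12.4% and 17.5%, and 14.5% and 18.1%. The medians of the regulators were -0.28, -0.28, -0.10 and 0.06, against -0.06, -0.06, -0.01 and 0.02 over all genes. Crem, whose products include the early repressor ICER, rose 4.06-fold with DNFB (adjusted p = 7.64e-08), 1.5-fold with H2O2 (adjusted p = 0.0176), 6.72-fold with DPI (adjusted p = 1.67e-09) and 2.71-fold with DPI + DNFB (adjusted p = 4.38e-06). Its interaction was -3.33 (adjusted p = 2.02e-08). Srf, serum response factor itself, rose by 1.03 with DPI (adjusted p = 5.56e-05). Among the regulators that fell with DPI were Crtc1, by 1.45 (adjusted p = 0.011), and Nfatc2, by 1.02 (adjusted p = 0.00111). Mef2c, a muscle and myeloid transcription factor, fell by 0.84 with DNFB (adjusted p = 2.63e-06) and by 0.87 with H2O2 (adjusted p = 1.4e-06).

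Of 12 listed partners and corepressors of NR4A proteins, 8 were tested. With DNFB 2 rose and 2 fell, with H2O2 2 rose and 1 fell, with DPI 2 rose and 1 fell, and with DPI + DNFB 2 rose and 0 fell. Over all genes 9.83% rose and 12.8% fell with DNFB, 10.1% and 16.2% with H2O2, 12.4% and 17.5% with DPI, and 14.5% and 18.1% with DPI + DNFB, so counts of this size from 8 genes say little about the list. Its medians were 0.22, -0.06, 0.18 and 0.25, against -0.06, -0.06, -0.01 and 0.02 over all genes. Bcl2, the survival protein that Nr4a1 binds at mitochondria, fell by 0.57 with DNFB (adjusted p = 0.00294) and by 0.72 with H2O2 (adjusted p = 0.000311), and rose by 0.48 with DPI + DNFB (adjusted p = 0.00695). Rxrb, a retinoid X receptor of the kind that pairs with Nr4a1 and Nr4a2, fell by 1.07 with DPI (adjusted p = 0.000213). Kdm1a, a histone demethylase, rose by 0.61 with DNFB (adjusted p = 0.000677).

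Genes reported as NR4A targets in other cells were tested as 17 of 20 listed. With DNFB 5 rose and 4 fell, with H2O2 5 rose and 4 fell, with DPI 1 rose and 3 fell, and with DPI + DNFB 2 rose and 5 fell. The shares over all genes were 9.83% and 12.8% with DNFB, 10.1% and 16.2% with H2O2, 12.4% and 17.5% with DPI, and 14.5% and 18.1% with DPI + DNFB, and the DPI counts are near them. The medians of these 17 were 0.13, 0.09, -0.14 and 0.08, against -0.06, -0.06, -0.01 and 0.02 over all genes. Havcr2, which encodes the checkpoint receptor TIM-3, rose 7-fold with DNFB (adjusted p = 5.39e-06) and 3.14-fold with H2O2 (adjusted p = 0.00114). It fell by 2.22 with DPI (adjusted p = 5.6e-05) and by 2.36 with DPI + DNFB (adjusted p = 2.86e-05) on the log2 scale. Icam1, an adhesion molecule, rose 4.16-fold with H2O2 (adjusted p = 1.44e-08), and Nfkbia, the inhibitor of NF-kappaB, rose 3.33-fold with H2O2 (adjusted p = 2.27e-08). Ccnd1, cyclin D1, fell by 2.21 with DPI (adjusted p = 4.04e-10).

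Other immediate early genes were tested as 34 of 36 listed. With DNFB 21 rose and 3 fell, with H2O2 26 rose and 1 fell, with DPI 20 rose and 2 fell, and with DPI + DNFB 21 rose and 3 fell. Of all genes, 9.83%, 10.1%, 12.4% and 14.5% rose in these 4 comparisons, and 12.8%, 16.2%, 17.5% and 18.1% fell. The medians of the early genes were 1.0, 1.53, 0.77 and 1.07, against -0.06, -0.06, -0.01 and 0.02 over all genes. The largest rises included Dusp1, a MAP kinase phosphatase, at 15.3-fold with DNFB (adjusted p = 1.18e-09), Egr1, a zinc finger transcription factor, at 32.4-fold with H2O2 (adjusted p = 9.27e-08), and Egr2 at 17.6-fold with DPI (adjusted p = 2.86e-10). With DPI + DNFB, Egr1 rose 26.7-fold (adjusted p = 1.85e-07) and Fosb 17.3-fold (adjusted p = 3.91e-09).

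Genes with the most similar profile were sought by Pearson's correlation over the 15 arrays among 11931 other named genes, given as a description, since arrays of 1 group share its treatment. For Nr4a1 the highest were Ppp1r15a, a regulator of translation under stress (r = 0.961), Eif4ebp1 (0.950), Snhg12 (0.947), Fosb (0.943) and Fbxo30 (0.942). Ppp1r15a averaged 986 with DNFB, 1250 with H2O2, 1640 with DPI and 3710 with DPI + DNFB, against 286 in non-treated cells. For Nr4a3 they were Klf9 (0.947), Bcl2l11, the cell death gene BIM (0.941), Resf1 (0.938), Tent5c (0.936) and Rora (0.925). Klf9 averaged 4490 with DNFB, 5680 with H2O2, 6850 with DPI and 5760 with DPI + DNFB, against 2140 in non-treated cells. For Nr4a2 they were Cox20 (0.935), Atg10 (0.934), Cdc20, a cell division gene (0.931), Foxred1 (0.927) and Tacc3 (0.923). Cdc20 averaged 3560 with DNFB, 2510 with H2O2, 6620 with DPI and 12600 with DPI + DNFB, against 5960 in non-treated cells. Nr4a1 and Nr4a3 correlated at 0.905, Nr4a1 and Nr4a2 at 0.593, and Nr4a2 and Nr4a3 at 0.373.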

How the data were processed

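Total RNA of 15 samples was labelled and hybridised to mouse expression arrays. Per probe set, the table deposited by the authors gives 1 intensity on a linear scale, made with MAS5 in Affymetrix Expression Console, per the submitters' processing notes, which give no versions. Of the 15 arrays, 9 had a 2% trimmed mean of 500 and 6 one of 250. The 6 were DNFB replicate 3 and, in every group, replicate 1. All arrays were rescaled to 500.

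Control probe sets (64 of 45101) were left out, and symbols came from the platform annotation, updated through a reference gene table. Log2(signal + 15) was fitted over all 15 arrays by lmFit, contrasts and trended eBayes of limma 3.58.1 (R 4.3.3), with 10 residual degrees of freedom, on the 27022 probe sets whose mean was at least the 40th percentile. P-values were adjusted by Benjamini-Hochberg within each comparison, at 0.05. Each gene was represented by its probe set with the highest mean. The number of arrays limits precision. Correlations within a group were 0.933 to 0.967 and no 2 arrays were identical. The fit was run on simulated data with independent noise on each array. That simulation does not cover the likeness of same-numbered arrays given next. Same-numbered arrays of different groups had correlations of deviations from 0.00369 to 0.126 (median 0.0587). Differently numbered arrays had -0.117 to 0.0535 (median -0.033), and each of the 15 arrays correlated best with its own number. The labels give these arrays nothing but the number, and the main fit did not use it for pairing. A fit with the replicate number as a block changed none of the 24 calls.

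The members and gene lists were chosen with earlier results of these data known. Named genes were the members and, for each list and comparison, some of up to 4 genes of largest change past the threshold. Likeness names the 5 highest correlations. Alternatives covered scaling, normalization, pseudocount, filter, variance model, batches and each array left out.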

Additional observations from a re-analysis of the deposited data

Results flagged for a closer look

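The limma interaction term is the DNFB difference with DPI minus that without DPI. It passed the test for the probe set that represents each of the 3 NR4A genes. Of all probe sets, 12.9% had a positive and 10.9% a negative interaction past the test. On the log2 scale the interaction was -2.99 for Nr4a3 (1438796_at), which passed under all 35 alternatives. It was -0.98 for Nr4a1 (1416505_at), lost in 5 of 35, and 0.55 for Nr4a2 (1455034_at), lost in 13 of 35. Both of these calls were lost with the beta-actin ratio as a covariate. That ratio largely goes with the DPI + DNFB group, so these losses do not tell ratio and group apart. On the linear scale DNFB added 2354 signal units to Nr4a1 with DPI and 1719 without, the opposite sign. The bright Nr4a2 probe set 1447863_s_at had 0.80 and passed (adjusted p = 0.00179). The bright probe sets 1450749_a_at (0.53, adjusted p = 0.0513) and 1450750_a_at (0.52, adjusted p = 0.0879) did not pass. Dixon's test for an outlying array was not run on these groups of 3.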

How the results depend on the processing

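The 3 genes in 8 comparisons gave 24 results, of which 20 passed the test, and each was recomputed under 35 alternatives, 15 of them leaving out 1 array. None of the 20 turned its direction, 7 kept their side of the threshold under every alternative, and 11 did so under every alternative but the values as deposited, a count that includes those 7. The cause of the changes below was not tested unless stated.

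With the values as deposited, where arrays of 1 group carry different scaling targets, these results no longer passed on the log2 scale. For Nr4a1 they were DNFB against non-treated (1.52), H2O2 against non-treated (1.65), DPI + DNFB against DNFB (1.46) and against DPI (0.87), and the interaction (-0.64). For Nr4a2 they were H2O2 (-0.56), DPI (0.63) and DPI + DNFB (1.15) against non-treated, DPI + DNFB against DNFB (1.51) and against DPI (0.52), DNFB against H2O2 (0.20) and the interaction (0.88). For Nr4a3 it was DPI + DNFB against DNFB (1.23). Nr4a1 with DNFB against H2O2, not called, turned to -0.13.

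Median centring moved the median of all probe sets to -0.23 with DPI + DNFB against non-treated, where it was 0.02. Under it, Nr4a2 with DPI + DNFB against DPI (0.27) and its interaction (0.27) did not pass, and Nr4a3 with DPI + DNFB against DPI turned to -0.22. The mean of all kept probe sets of Nr4a2 gave 0.066 with DNFB, turned, and -0.041 with H2O2, 0.36 with DPI and 0.11 with DNFB against H2O2, none past the threshold.

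The 9 arrays scaled to 500 hold 1 DNFB array (replicate 2) and 2 of each other group, so the spread comes from the other groups, with 4 residual degrees of freedom. There DPI + DNFB against DNFB did not pass for Nr4a1 (0.865) or Nr4a3 (0.33), nor did Nr4a2 with DNFB against H2O2 (0.675) or the interactions of Nr4a1 (-1.25) and Nr4a2 (0.58). Uncalled differences turned to 0.004 for Nr4a2 with DNFB, -0.079 for Nr4a3 with DPI + DNFB against DPI and 0.15 for Nr4a3 with DNFB against H2O2. The 6 arrays scaled to 250 hold 2 DNFB arrays and 1 of each other group, so the spread is that of the DNFB pair, with 1 residual degree of freedom, and a lost call says little. There Nr4a2 did not pass with H2O2 (-0.33), DPI + DNFB against DPI (0.40), DNFB against H2O2 (0.50) or the interaction (0.22), nor did the Nr4a1 interaction (-0.81). Nr4a2 with DNFB turned to 0.17 there, to 0.016 with the scaling target as a block and to 0.003 with cyclic loess.

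With the beta-actin ratio as a covariate, Nr4a3 with DPI + DNFB against DNFB (0.89), DPI + DNFB against DPI for Nr4a1 (0.875) and Nr4a2 (0.441), and the interactions of Nr4a1 (-0.98) and Nr4a2 (0.485) did not pass. Since the ratio largely goes with the DPI + DNFB group, a lost call there does not tell ratio and group apart. With DPI + DNFB represented by replicate 2 alone, an alternative chosen after seeing the data, Nr4a2 with DPI + DNFB against DPI (0.55) and the interactions of Nr4a1 (-0.95) and Nr4a2 (0.58) did not pass; the lone array is assumed to vary like the other groups. The Nr4a2 interaction (0.55) did not pass without the variance trend or at an adjusted p of 0.01.

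Leaving out 1 array at a time gave -0.175 to 0.095 for Nr4a2 with DNFB, 0.424 to 0.695 for its interaction, 0.438 to 0.601 for its DNFB against H2O2, and -0.107 to 0.193 for Nr4a3 with DPI + DNFB against DPI. For the Nr4a2 probe sets named next it gave, with DNFB against non-treated, -0.212 to 0.754 (1433422_at), -0.153 to 0.413 (1433423_at), -0.159 to 0.047 (1447863_s_at), -0.101 to 0.068 (1450749_a_at) and -0.255 to 0.102 (1450750_a_at). Probe set 1433422_at had -0.804 to 0.162 with DPI, -0.018 to 1.207 with H2O2 and -0.8 to 0.119 with DNFB against H2O2. Probe set 1433423_at had -0.632 to 0.03 with DPI, -0.59 to 0.017 with DPI + DNFB, -0.309 to 0.379 with DPI + DNFB against DPI and -0.493 to 0.195 for the interaction.

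The calls of 1433422_at and 1450750_a_at with DPI + DNFB against DPI were lost in 17 of 32 and 14 of 33 alternatives. That of 1447863_s_at with DNFB against H2O2 was lost in 12 of 33. Other turned differences, all of Nr4a2 probe sets, were uncalled. DNFB against non-treated turned to 0.005 (cyclic loess), 0.006 (median centring) and 0.012 (within 250) for 1450749_a_at, 0.065 (within 250) for 1447863_s_at, -0.081 (within 250) for 1433422_at, and -0.029 (scaling block), -0.101 (as deposited) and -0.131 (within 250) for 1433423_at. As deposited, DNFB against H2O2 turned to -0.038 for 1450749_a_at and -0.024 for 1450750_a_at, and the 1433423_at interaction to 0.096. Within 500, 1433422_at turned to 0.12 with DPI and 0.009 with DNFB against H2O2, and 1433423_at to 0.386 with DPI + DNFB against DPI and 0.26 for the interaction. Within 250, 1433423_at turned to 0.144 with DPI, and array weights gave it 0.112 with DPI + DNFB against DPI.

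The replicate block changed none of the 24 calls (Nr4a1 with DNFB stayed at 1.85) and gave 3346 to 10748 called probe sets over the comparisons, where the fit without it gave 2722 to 10121. The labels give same-numbered arrays nothing but the number. Each of the 15 arrays correlated best with its own number, and replicate 1 of every group was deposited at 250 and replicate 2 at 500. Counts of called probe sets fell to 39 to 1303 as deposited, and to 609 at the lowest with the beta-actin ratio. Signals near the floor limit the dim probe sets, and 3 arrays a group limit all results.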

Other observations

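Other genes whose promoter window held at least 4 CRE cores were counted, as a description of a set chosen by sequence alone. With the NR4A genes included there were 45 such windows of 44 genes, and 35 genes besides the NR4A members were tested. With DNFB 12 rose and 2 fell, where 9.83% and 12.8% of all genes did. With H2O2 8 rose and 5 fell (10.1% and 16.2% of all), with DPI 8 rose and 6 fell (12.4% and 17.5%), and with DPI + DNFB 4 rose and 8 fell (14.5% and 18.1%). Rab5a, a GTPase of early endosomes, and Coq10b, a coenzyme Q binding protein, were among those that rose in all 4 comparisons, which share the non-treated arrays. Dusp8, a MAP kinase phosphatase, rose with DNFB, H2O2 and DPI.

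Cd207, which encodes the Langerhans cell lectin langerin, averaged 991 with DNFB, 226 with H2O2, 32.7 with DPI and 37.1 with DPI + DNFB, against 135 in non-treated cells. The other listed Langerhans cell markers, Cdh1 and Epcam, did not follow it. In the same order, Cdh1 averaged 650, 695, 1060 and 806, against 1260 in non-treated cells. Epcam averaged 209, 308, 247 and 196, against 190.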
